A study of Mus musculus with 6 samples.

Results

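The genes described here are 9 regulators of messenger RNA stability and decay in CD4 T cells of the mouse colon: Zfp36, Zfp36l1, Zfp36l2, Zc3h12a, Zc3h12d, Rc3h1, Arid5a, Btg1 and Btg2. They were chosen by name, as columns of the deposited count table, and all 9 were found among its 15473 genes. All 9 passed the filter on low counts over all cells, and all but Rc3h1, which did not pass in cluster 11, passed in each cluster tested. The cells are CD4 T cells from the lamina propria of the colon, the connective tissue under the gut epithelium, of mice that carry the alleles Foxp3{delta}EGFPiCre/WT and R26lsl-tdTomato/wt. This is a Foxp3 allele with an EGFP and Cre insert beside a wild-type one, and a tdTomato reporter that Cre switches on. Foxp3 is the transcription factor of regulatory T (Treg) cells, so the insert reports cells that use that allele. The delta in the name of the inserted allele is read here as a disrupted Foxp3, and only the wild-type allele as intact. RNA counts do not show whether Foxp3 protein was made. Cells were sorted into a tdTomato-GFP- gate and a tdTomato+GFP+ gate from animals of this 1 genotype; age, sex and treatment are not given in the sources used here. Each gate held 3 biological replicates marked with hashing antibodies and run together on 1 droplet lane, so that gate and lane cannot be told apart.

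The 9 proteins act on mRNAs after transcription. The ZFP36 family (Zfp36, also called tristetraprolin, with Zfp36l1 and Zfp36l2) binds AU-rich elements in 3′ untranslated regions (UTRs) and recruits the CCR4-NOT deadenylase, which shortens the poly(A) tail. Zc3h12a encodes Regnase-1, an endonuclease that cuts stem-loops in the 3′ UTRs of inflammatory mRNAs, and Zc3h12d encodes a related protein of the same family. Rc3h1 encodes Roquin-1, which binds stem-loops and recruits CCR4-NOT. Arid5a binds stem-loops too, but it stabilises the mRNAs it binds and opposes Regnase-1. Btg1 and Btg2 are antiproliferative adaptors that bind the CCR4-NOT catalytic subunits and keep resting T cells quiescent. In T cells the ZFP36, Regnase and Roquin proteins are known to limit cytokine mRNAs, and T cell receptor signals change their activity by phosphorylation or by MALT1 cleavage, neither of which RNA counts show.

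Some members, the ZFP36 family among them, hold in their own mRNAs an AU-rich sequence of the kind that ZFP36 proteins bind. The AU-rich core TATTTAT was searched on the sense strand of 3′ UTRs of the GENCODE annotation of GRCm38, counting overlapping copies. It was found in 5 of the 9 members, in 21 of 30 mRNAs listed as targets of these proteins (70.0%) and in 27.5% of 20981 protein-coding genes with a 3′ UTR. The windows below show the core in capitals (5′ to 3′) in the 5 members that hold it and in 5 cytokine mRNAs whose levels are described further on.
Zfp36 (chr7:28376958-28376987, minus strand): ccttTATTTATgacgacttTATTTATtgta
Zfp36l1 (chr12:80108422-80108451, minus strand): cttatcaaaacgTATTTATtgccaaactat
Zfp36l2 (chr17:84184914-84184943, minus strand): aactatttaactTATTTATtatcttgtgaa
Rc3h1 (chr1:160970042-160970071, plus strand): tactttactcatTATTTATtgagatgagga
Btg2 (chr1:134077249-134077278, minus strand): aaaatgaagagcTATTTATacatgtttttt
Tnf (chr17:35199677-35199706, minus strand): TATTTATTATTTATTTATTATTTATTTATt
Csf2 (chr11:54247325-54247354, minus strand): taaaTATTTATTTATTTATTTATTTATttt
Ifng (chr10:118445332-118445361, plus strand): ccTATTTATtaatatttaaaacTATTTATa
Il22 (chr10:118209883-118209912, plus strand): tTATTTATtataagtatacatttTATTTAT
Il17a (chr1:20734197-20734226, plus strand): gcctaTATTTATatgagcTATTTATgaatc

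The whole 3′ UTR of Zfp36 held 3 copies in 774 bases, and 1.31% of 3′ UTRs of similar length held as many. Zfp36l1 had 3 copies in 1835 bases (4.25% of UTRs of similar length hold as many) and Zfp36l2 had 3 in 1822 bases (4.24%). In the long 3′ UTR of Rc3h1, of 7181 bases, there were 2 copies, a number reached by 46.4% of UTRs of similar length. Btg2 held 1 copy in 2199 bases, as did 42.7% of its length class. No copy of these letters was found in Zc3h12a, Zc3h12d, Arid5a or Btg1. Among the cytokines, Csf2 held 9 copies (0.0584% of UTRs of similar length hold as many), Tnf 8 (0.0854%), Il22 4 (0.490%), Ifng 4 (0.644%) and Il17a 3 (1.36%). Matches are descriptions of sequence and not measured binding sites.

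The members also differ in their promoters. RefSeq promoters of 300 bases (GRCm38.p6) were found for 8 of the 9 members, all but Zfp36l2. Motifs were searched on both strands: the AP-1 motif TGANTCA, present in 7.81% of 32851 promoters of that length, the CRE TGACGTCA, present in 1.79%, and the CArG box bound by serum response factor, present in 1.63%. The Zfp36 promoter held a CArG box 5′ of the RefSeq start, at position -58, and the Btg2 promoter a CRE at position -166. These 2 stretches of 60 bases are shown because Zfp36 and Btg2 had their highest mean levels in the same cluster, described below. The motif is in capitals.
Zfp36 (chr7:28379252-28379311, minus strand): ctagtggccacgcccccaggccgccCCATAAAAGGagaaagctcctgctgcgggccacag
Btg2 (chr1:134079288-134079347, minus strand): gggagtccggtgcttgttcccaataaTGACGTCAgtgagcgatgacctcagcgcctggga
TGANTCA was found once in Zfp36l1, at -129, and once in Rc3h1, at -133. None of the 3 motifs was found in these windows of Zc3h12a, Zc3h12d, Arid5a or Btg1.

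By the annotation of GRCm38, Zfp36 lies on chr7:28376784-28380253, Zfp36l1 on chr12:80107754-80113013 and Zfp36l2 on chr17:84183931-84187947, all on the minus strand. The Zfp36 promoter stretch shown above lies inside the span of that gene, because the RefSeq start used for promoters lies further downstream. Zc3h12a lies on chr4:125118423-125127840 on the minus strand, Zc3h12d on chr10:7832470-7870396 and Rc3h1 on chr1:160906418-160974978, both on the plus strand. Arid5a is at chr1:36307733-36324029 and Btg1 at chr10:96617006-96622809 on the plus strand, and Btg2 at chr1:134075170-134079120 on the minus strand. Each of Zfp36, Zfp36l1, Zfp36l2 and Zc3h12d is overlapped by 1 gene on the other strand (Gm44710, Gm26669, AC132455.1 and Gm24726). On the same strand, Zc3h12d overlaps Mir5104 and Rc3h1 overlaps 3 predicted genes. The strand setting of the counting is not given in the sources used here, so reads of such pairs may have been shared.

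The table held 23595 cells, of which 18874 carried a hashed replicate: 10109 tdTomato-GFP- cells (5159, 3114 and 1836 in replicates 1 to 3) and 8765 tdTomato+GFP+ cells (1747, 4610 and 2408). Summed UMIs (unique molecules) without hashtags ran from 7424984 to 23289046 per replicate, with medians of 3502 to 3905 per cell, and 174 barcodes occurred in both lanes. The authors' clustering gave 16 clusters. Those named here as Th17-like (clusters 1, 2, 3, 12 and 13) held 1123 of the tdTomato-GFP- cells and 5665 of the tdTomato+GFP+ cells. Th17 cells make interleukin 17. The clusters are given in the order of their Il17a level where they are compared. Summed levels of markers of other cell types, in CPM (counts scaled to 1000000 UMIs), ran from 22 to 63.4 in tdTomato-GFP- and from 10.8 to 24.4 in tdTomato+GFP+ replicates for epithelial cells. They ran from 51.6 to 78.7 and from 35.4 to 81.5 for stromal cells, from 680 to 1722 and from 275 to 1958 for B and plasma cells, and from 435 to 671 and from 442 to 556 for myeloid cells. No marker measured was at 0, and of the 4 mast cell markers only Kit was measured, at 15.8 to 19.9 and 9.48 to 13.5 CPM. Among Treg markers, Foxp3 itself was at 179 ± 13.4 CPM in tdTomato-GFP- and 126 ± 16 CPM in tdTomato+GFP+ cells (SD, n = 3), and it does not tell which allele a count comes from.

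Over all cells, 5 of the 9 regulators differed between the gates, while 26.4% of all 11933 genes tested were called (13% upwards and 13.4% downwards). Zfp36l2, Zc3h12d, Arid5a and Btg2 were lower in tdTomato+GFP+ cells and Btg1 was higher. A gene was called at an adjusted p below 0.05 in edgeR's quasi-likelihood test with Benjamini-Hochberg adjustment over all genes. Log2 fold changes take tdTomato+GFP+ cells relative to tdTomato-GFP- cells, and SE is their standard error. In 5 of the 9 members the replicates of the gates did not overlap, as in 42.9% of all genes tested.

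Within the ZFP36 family, Zfp36l2 changed and its relatives did not pass the test. Zfp36l2 stood at 518, 517 and 518 CPM in tdTomato-GFP- replicates 1 to 3 and at 172, 224 and 251 CPM in tdTomato+GFP+ replicates 1 to 3. The gates did not overlap, and the log2 fold change was -1.28 (SE 0.13, edgeR adjusted p = 0.00085). Zfp36 was at 802, 838 and 994 CPM and at 797, 920 and 1073 CPM. Its replicates overlapped, with a log2 fold change of 0.07 (SE 0.13, edgeR adjusted p = 0.768). Zfp36l1 was at 1475, 1491 and 1405 CPM and at 1701, 1547 and 1313 CPM, again overlapping, with a log2 fold change of 0.05 (SE 0.09, edgeR adjusted p = 0.755).

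Among the stem-loop regulators, Arid5a fell most. It stood at 169, 155 and 149 CPM in tdTomato-GFP- cells and at 66.0, 81.3 and 89.5 CPM in tdTomato+GFP+ cells. The lowest tdTomato-GFP- replicate lay well above the highest tdTomato+GFP+ one (log2 fold change -1.01, SE 0.11, edgeR adjusted p = 0.00051). Zc3h12d, the Regnase relative, was at 49.9, 46.7 and 43.7 CPM and at 32.2, 26.1 and 26.6 CPM, without overlap (log2 fold change -0.75, SE 0.09, edgeR adjusted p = 0.00059). Regnase-1 itself, Zc3h12a, was at 147, 156 and 125 CPM and at 141, 133 and 119 CPM, which overlapped (log2 fold change -0.13, SE 0.09, edgeR adjusted p = 0.341). Rc3h1 was at 36.5, 41.6 and 40.1 CPM and at 34.3, 39.7 and 40.4 CPM, with overlapping gates (log2 fold change -0.05, SE 0.08, edgeR adjusted p = 0.725).

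The paired CCR4-NOT adaptors moved in opposite directions. Btg1 was at 2032, 2077 and 2038 CPM in tdTomato-GFP- and at 2600, 2656 and 2512 CPM in tdTomato+GFP+ cells, all 3 of the latter above all 3 of the former (log2 fold change 0.32, SE 0.04, edgeR adjusted p = 0.00108). Btg2 was at 709, 717 and 721 CPM and at 447, 549 and 537 CPM, with each tdTomato+GFP+ replicate lower (log2 fold change -0.50, SE 0.08, edgeR adjusted p = 0.00222). The 5 called members were called each time 1 replicate was left out.

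**Figure D1:**
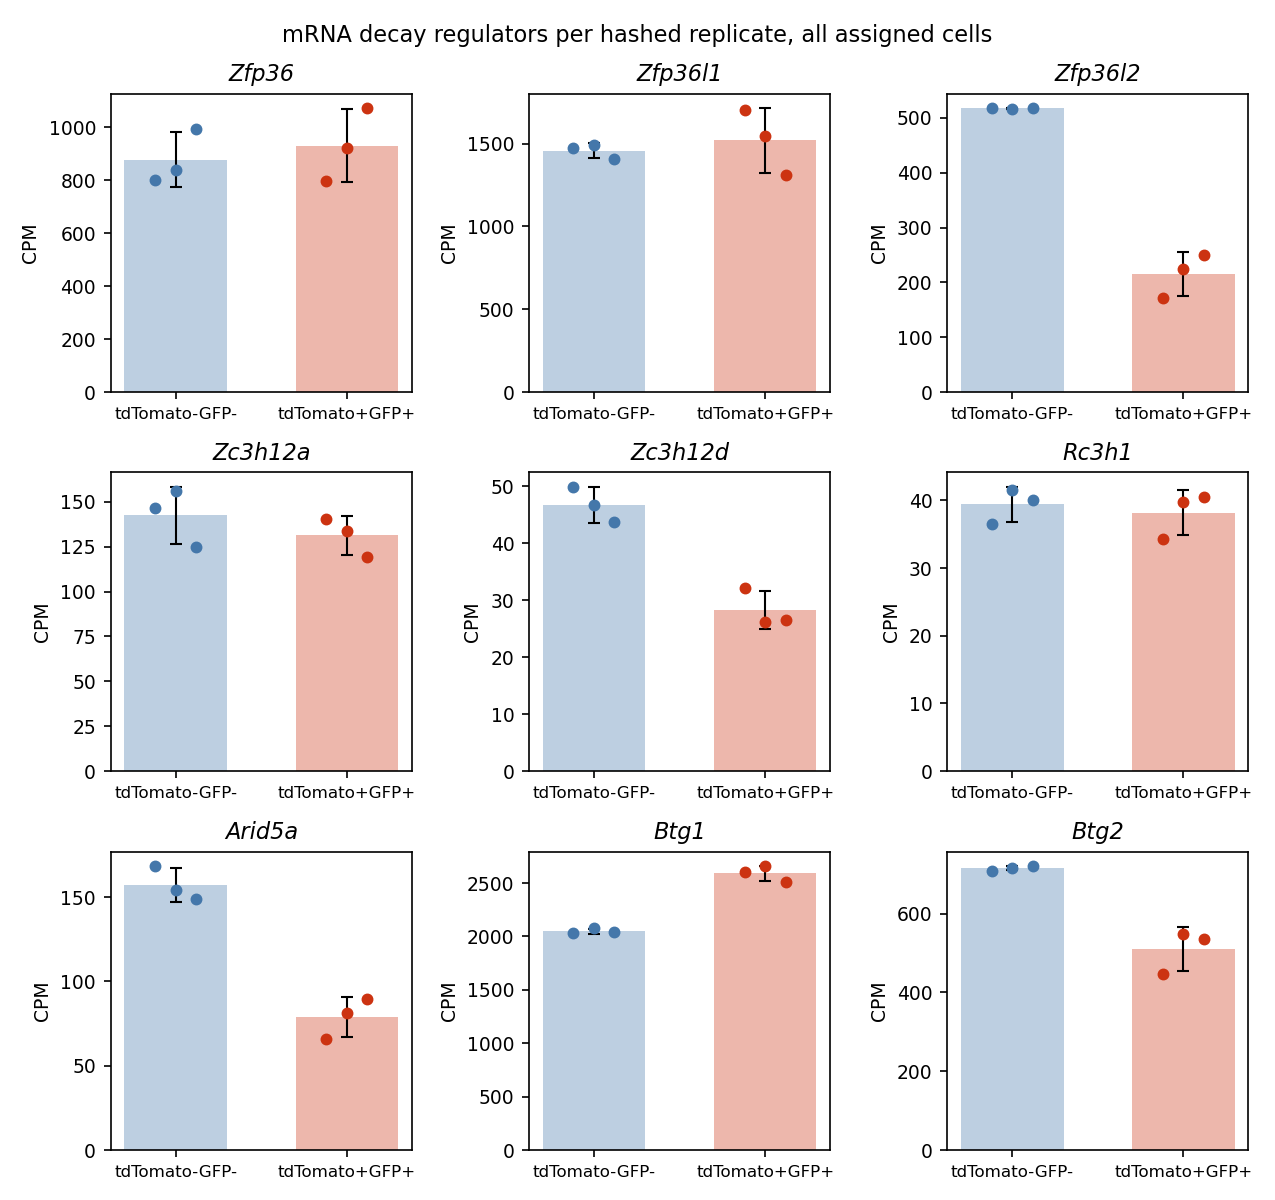
Levels of the 9 regulators over all cells, in CPM without hashtag counts, with 1 panel per gene, 1 point per hashed replicate and the mean ± SD of 3 replicates per gate. Zfp36l2, Zc3h12d, Arid5a and Btg2 show every tdTomato+GFP+ point below every tdTomato-GFP- point, Btg1 shows the reverse, and the other genes overlap.

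These sums mix cell types in different proportions. A lower sum can come from fewer cells of a type or from less RNA per cell, which such sums cannot tell apart. With the same number of cells drawn per cluster from both gates of a replicate number, 2 members were called: Arid5a (log2 fold change -0.70, SE 0.11, edgeR adjusted p = 0.0170) and Btg2 (-0.58, SE 0.10, edgeR adjusted p = 0.0191). Zfp36l2 then had a log2 fold change of -0.74 (SE 0.22, edgeR adjusted p = 0.188) and Zc3h12d one of -0.44 (SE 0.13, edgeR adjusted p = 0.112). Btg1 was left with 0.03 (SE 0.08, edgeR adjusted p = 0.916). That draw uses fewer cells, and it called 290 of 10694 genes tested, against 3153 of 11933 in the main test.

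Across clusters, the regulators spread more widely than between the gates, and each had its own order. For 11 clusters each of the 6 replicates held at least 20 cells, and these are ranked here by mean CPM of the 3 replicates of a gate, as a description, because the clusters were made from the same counts. Clusters 1, 2 and 3 were Th17-like, 6 Th1-like, 0 Th2-like, 7 Tfh-like (follicular helper) and 10 cycling. Clusters 4, 5, 8 and 11 stayed unnamed. Cluster 5 carried 8 of 8 Treg and 5 of 6 Th2 markers, cluster 8 was led by stromal and heat shock genes, and cluster 11 was led by epithelial Reg3b and by Lars2. Cycling cluster 10 had larger totals, with a median of 8144 UMIs per cell in the tdTomato-GFP- gate and 9154 in the other gate. Medians of the other ranked clusters lay between 3332 and 4619. CPM are shares of all UMIs, so a lowest CPM in cluster 10 need not mean the fewest molecules per cell. Molecules per cell were not ranked.

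Zfp36 had the widest spread. In tdTomato-GFP- cells its mean was 2823 ± 579 CPM in cluster 8 and 470 CPM in the cycling cluster 10, a ratio of 6.01, and in tdTomato+GFP+ cells 2844 ± 111 and 344 CPM, a ratio of 8.26. Of the 10 steps between neighbours in this order, 4 had no overlap of replicates in the first gate and 3 in the second. Zfp36l1 was highest in cluster 5 (2649 CPM in tdTomato-GFP- and 1963 CPM in tdTomato+GFP+ cells) and lowest in cluster 10 (917 and 729 CPM). Only 1 and 0 of its 10 steps were free of overlap, so most neighbours did not differ beyond their spread.

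Zfp36l2 tended to be lower in clusters with more Il17a, with exceptions. Its lowest mean was that of Th17-like cluster 1 in both gates, at 167 CPM in tdTomato-GFP- and 122 CPM in tdTomato+GFP+ cells. The highest were 740 CPM in the Th2-like cluster 0 of tdTomato-GFP- cells and 517 CPM in cluster 8 of tdTomato+GFP+ cells. Clusters 5 and 10, with less Il17a, were also low. They had 342 and 337 CPM in tdTomato-GFP- cells, beside 335 CPM in Th17-like cluster 2. In tdTomato+GFP+ cells they had 165 and 184 CPM, beside 192 CPM in cluster 2. The Tfh-like cluster 7, with the least Il17a of those ranked, had 463 CPM in tdTomato-GFP- and 446 CPM in tdTomato+GFP+ cells. Of the 10 steps between neighbours, 3 were free of overlap in tdTomato-GFP- cells and 0 in tdTomato+GFP+ cells. Over the 22 profiles of 11 clusters in 2 gates, the Pearson correlation of Zfp36l2 with Il17a on the log2(CPM + 20) scale was -0.75. This is a description without a test, since the profiles share lanes and replicates. Of the 2 small Th17-like clusters not ranked, cluster 12 of the tdTomato+GFP+ gate had 74.0 ± 25.1 CPM of Zfp36l2, below every ranked cluster, and cluster 13 had 146 ± 37.3 CPM (SD, n = 3).

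Among tdTomato-GFP- clusters, Zc3h12a and Zc3h12d were both highest in cluster 5, at 199.7 and 102 CPM, and differed in where they were lowest. Zc3h12a was also highest in cluster 5 among tdTomato+GFP+ clusters, at 217 CPM. Zc3h12a was lowest in the Tfh-like cluster 7, at 50.6 CPM in tdTomato-GFP- and 60.2 CPM in tdTomato+GFP+ cells. Zc3h12d was lowest in Th17-like cluster 1 of tdTomato-GFP- cells, at 19.5 CPM, and in tdTomato+GFP+ cells it was highest in the Tfh-like cluster, at 92.3 CPM. Each had 1 step between neighbours without overlap in the first gate and 0 in the second. Rc3h1 was the flattest member, with a ratio of highest to lowest cluster of 1.5 among tdTomato-GFP- clusters and 2.25 among those of the other gate, and no step free of overlap.

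Arid5a was highest in the Th2-like cluster 0 of tdTomato-GFP- cells, at 207 CPM, and lowest in cycling cluster 10, at 74.3 CPM. In tdTomato+GFP+ cells the Tfh-like cluster led with 183 CPM, and Th17-like cluster 3 was lowest with 46.9 CPM. Of the 10 steps of Arid5a, 0 were free of overlap in the first gate and 2 in the second. Btg1 was highest in Th17-like cluster 2 in both gates, at 3019 and 3326 CPM, and lowest in cycling cells, at 802 and 901 CPM. Its order was the best resolved of the 9 members, with 5 and 4 of 10 steps free of overlap. Btg2 had its highest mean in cluster 8 (1105 and 914 CPM) and, like Btg1, its lowest mean CPM in cycling cells (285 and 254 CPM), whose totals per cell were larger. Of its 10 steps, 3 and 2 were free of overlap. Among tdTomato-GFP- cells its replicates in cluster 8 (978 to 1310 CPM) overlapped those in Th17-like cluster 2 (1044 to 1118 CPM).

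**Figure D2:**
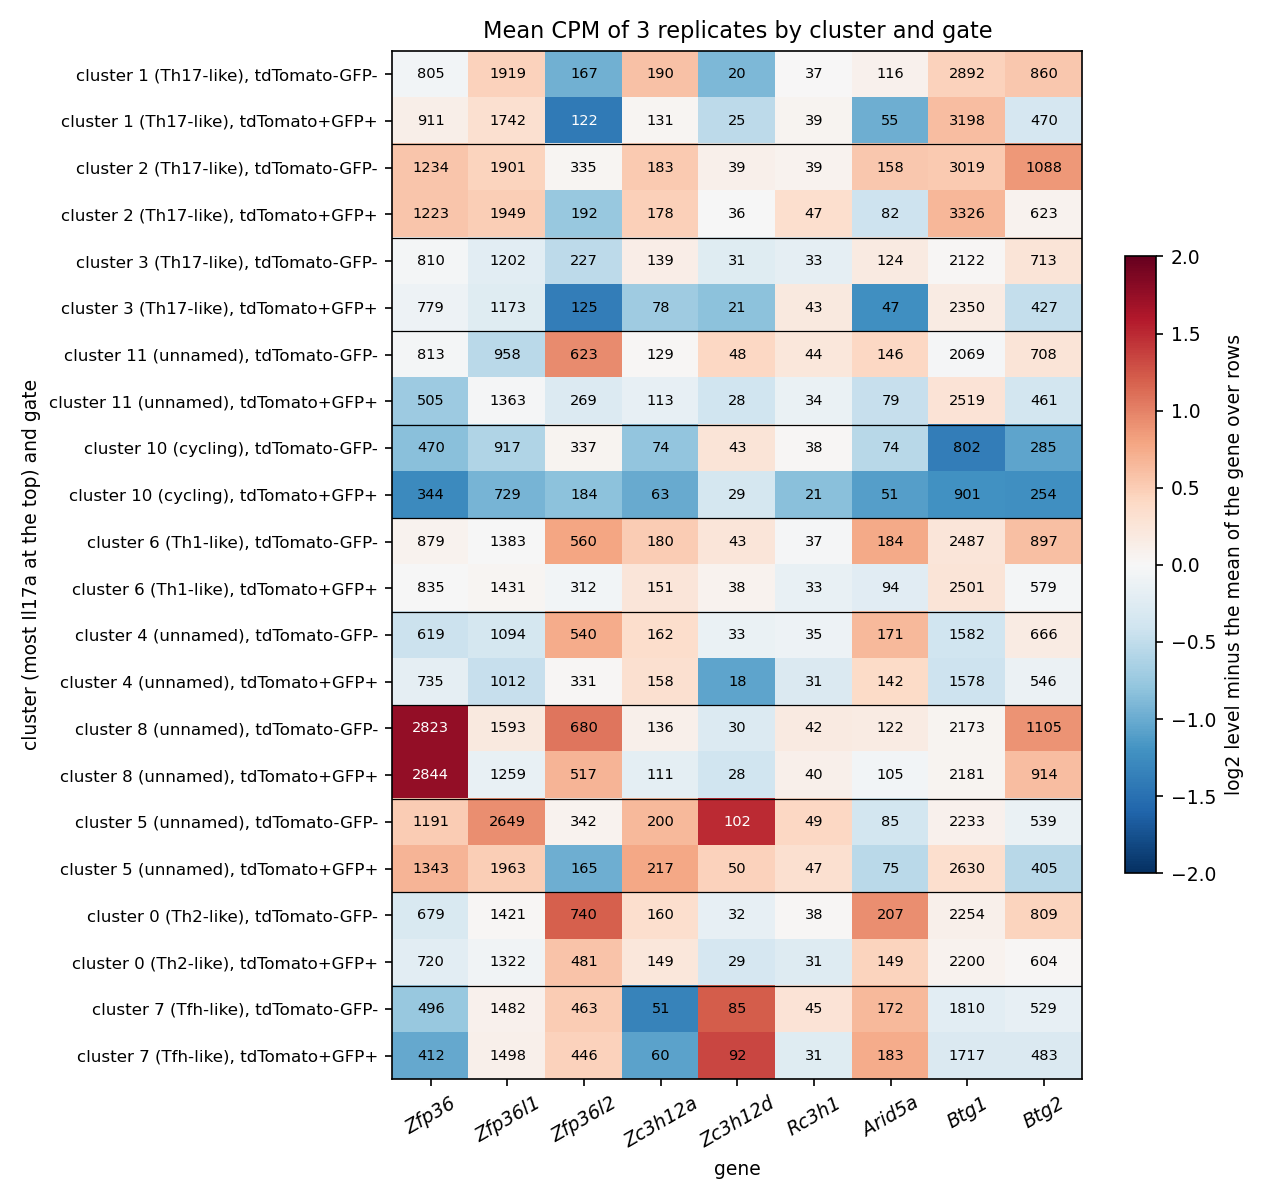
Heat map of the regulators in the 11 clusters with at least 20 cells in each of 6 replicates. Genes are in columns, and each row is 1 cluster in 1 gate, with the most Il17a at the top. Numbers give the mean CPM of 3 replicates, and colours the log2 level minus the mean of the gene over rows. Zfp36 peaks in cluster 8 in both gates, and Btg1 is lowest in cycling cluster 10. Zfp36l2 is low in Th17-like clusters 1, 2 and 3 and also in clusters 5 and 10.

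Cluster 8 also carried the most RNA of genes induced by tissue digestion. The summed level of 18 immediate-early and dissociation genes, none of them a member, was 42917 ± 2245 CPM there in tdTomato-GFP- and 43663 ± 2219 CPM in tdTomato+GFP+ cells. In the other clusters the mean sum was between 14290 and 29480 CPM. Zfp36 and Btg2 are known as immediate-early genes themselves, and both had their highest mean in this cluster. For Btg2 in tdTomato-GFP- cells, the replicates there overlapped those of Th17-like cluster 2. Over all cells the sum ran from 18377 to 22162 CPM in tdTomato-GFP- and from 19172 to 22495 CPM in tdTomato+GFP+ replicates, which overlapped. The part of digestion in the levels of Zfp36 and Btg2 was not tested.

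Genes with the most similar profile over the 22 points were listed for each member among genes of at least 50 CPM, as Pearson correlations on the log2(CPM + 20) scale. For Zfp36 they were Dusp1 (0.94), a phosphatase of MAP kinases, Klf6 (0.93) and the co-chaperone Dnaja1 (0.90). Zfp36l1 was nearest to Stat3 (0.90), Sec62 (0.86) and Ddx5 (0.84). Zfp36l2 was nearest to the ribosomal protein genes Rps21 (0.91) and Rps16 (0.90) and to Klf3 (0.89). Zc3h12a was nearest to Traf1 (0.92) and Dusp5 (0.92), both known as genes induced by receptor signals, and to Fli1 (0.91). Zc3h12d was nearest to the Treg factor Ikzf2 (0.87), to Izumo1r (0.85) and to Hacd3 (0.84). For Rc3h1 the nearest, Neat1, reached 0.79. Arid5a was nearest to Mbp (0.90), Epb41 (0.87) and Themis (0.87), Btg1 to Dtx3 (0.92), Phf1 (0.92) and Ddx5 (0.91), and Btg2 to Cd96 (0.83) and Rassf5 (0.82), among others.

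Th17-like cells were then compared with Th17-like cells, since they make up different parts of the gates. In the 5 Th17-like clusters pooled, 3 members were called, all lower in tdTomato+GFP+ cells: Arid5a, Btg2 and Zc3h12a. Of 10075 genes tested, 11.2% were called (4.75% higher and 6.45% lower). Replicates were apart in 4 of the 9 members, against 30.2% of all genes. Arid5a was at 140, 131 and 138 CPM in tdTomato-GFP- and at 47.7, 63.5 and 68.1 CPM in tdTomato+GFP+ replicates. It did not overlap between the gates, with a log2 fold change of -1.22 (SE 0.12, edgeR adjusted p = 2e-05). Btg2 was at 948, 922 and 860 CPM and at 444, 540 and 528 CPM, likewise apart, with a log2 fold change of -0.89 (SE 0.07). Zc3h12a was at 196, 171 and 142 CPM and at 144, 127 and 127 CPM. Its gates overlapped by 1 replicate each, and its call (log2 fold change -0.42, SE 0.10, edgeR adjusted p = 0.0208) was lost under several alternatives. With 1 cell per clonotype the log2 fold change was -0.29 (edgeR adjusted p = 0.243). Without replicate 1 of the tdTomato-GFP- gate the log2 fold change was -0.28 (edgeR adjusted p = 0.156), and the adjusted p was 0.0989 without its replicate 2, 0.0892 without replicate 2 of the tdTomato+GFP+ gate and 0.0545 without its replicate 3.

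Zfp36l2 was just short of the threshold in the pooled Th17-like cells. It was at 254, 289 and 222 CPM and at 106, 162 and 157 CPM, with all tdTomato+GFP+ replicates lower (log2 fold change -0.88, SE 0.20, edgeR adjusted p = 0.0514). With the replicate number as a block it was called (log2 fold change -0.92, edgeR adjusted p = 0.0234). It was also called without replicate 1 of the tdTomato+GFP+ gate (-0.72, edgeR adjusted p = 0.000131) and without replicate 2 of that gate (-0.996, edgeR adjusted p = 0.0338). Of the 11 alternatives 5 called Zfp36l2 and 6 did not. Its log2 fold change ran from -0.996 to -0.696 over them, and the highest adjusted p of the edgeR and DESeq2 runs was 0.156. Btg1 was at 2623, 2696 and 2841 CPM and at 2991, 3040 and 3022 CPM, apart but by little, with a log2 fold change of 0.11 (SE 0.04, edgeR adjusted p = 0.0968, and 0.0110 with the replicate block). Zfp36 (log2 fold change -0.05), Zfp36l1 (-0.03), Zc3h12d (-0.18) and Rc3h1 (0.19) were not called, with edgeR adjusted p-values of 0.834, 0.929, 0.531 and 0.398.

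Cluster by cluster, 98 pairs of member and cluster were tested, and 21 were called, each of them lower in tdTomato+GFP+ cells. In Th17-like clusters, 3 members were called lower in cluster 1 (where 3.88% of all genes tested were called lower), 3 in cluster 2 (2.75%) and 4 in cluster 3 (3.33%). Outside them, 3 were called lower in the Th1-like cluster 6 (3.2% of all genes), 3 in cluster 11 (2.07%), 2 in cluster 5 (2.2%), 2 in the Th2-like cluster 0 (1.74%) and 1 in cluster 4 (0.921%). In the Tfh-like cluster 7, cluster 8 and the cycling cluster 10, where 0.513%, 0.73% and 3.88% of all genes were called in either direction, edgeR called 0 members, and DESeq2 called 0 there too. At an unadjusted p below 0.05, edgeR gave 0 members in cluster 7 (8.48% of all genes), 2 in cluster 8 (8.18%; Zfp36l1 and Zfp36l2) and 3 in cluster 10 (14.8%; Zc3h12d, Rc3h1 and Arid5a).

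Arid5a was called in 6 of 11 clusters. In Th17-like cluster 3 it stood at 122, 116 and 133 CPM against 33.8, 47.4 and 59.4 CPM, its largest difference (log2 fold change -1.44, SE 0.17, edgeR adjusted p = 9.29e-06). In cluster 1 it was at 121, 138 and 90.1 CPM against 43.9, 60.8 and 61.7 CPM, and in cluster 2 at 166, 134 and 175 CPM against 74.7, 84.5 and 86.5 CPM, with no overlap in either. The difference was not limited to Th17-like cells: in the Th1-like cluster 6 Arid5a was at 173, 170 and 209 CPM against 87.8, 91.2 and 102 CPM (log2 fold change -0.95, SE 0.12). In the Th2-like cluster 0 it was smaller, at 234, 187 and 201 CPM against 169, 141 and 137 CPM (log2 fold change -0.50, SE 0.11, edgeR adjusted p = 0.0154). That call was lost with 1 cell per clonotype (-0.36, edgeR adjusted p = 0.313), without replicate 1 or 3 of the tdTomato-GFP- gate (0.129 and 0.0599) and without replicate 2 or 3 of the tdTomato+GFP+ gate (0.123 and 0.0592). In cluster 5, which carried Treg markers, Arid5a was at 93.1, 70.6 and 90.7 CPM against 42.4, 85.1 and 98.4 CPM, overlapping, with a log2 fold change of 0.05 (SE 0.23). In the Tfh-like cluster 7 it was 0.03 (SE 0.22).

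Btg2 was called in the same number of clusters and lay below 0 on the log2 scale in all 11. In Th17-like cluster 2 it was at 1118, 1102 and 1044 CPM against 584, 632 and 653 CPM (log2 fold change -0.83, SE 0.07, edgeR adjusted p = 2.99e-08). In cluster 3 it was at 782, 676 and 681 CPM against 379, 454 and 450 CPM, and in cluster 1 at 857, 1001 and 721 CPM against 407, 530 and 471 CPM, apart in both. The cluster 1 call was lost without replicate 1 of the tdTomato-GFP- gate (edgeR adjusted p = 0.0539). In the Th1-like cluster 6 Btg2 was at 969, 870 and 852 CPM against 581, 600 and 555 CPM (log2 fold change -0.65, SE 0.07). In cycling cells it was at 339, 273 and 242 CPM against 219, 287 and 258 CPM, overlapping, with a log2 fold change of -0.16 (SE 0.12).

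Zfp36l2 was lower in tdTomato+GFP+ cells in all 11 clusters by sign, with no overlap of replicates in 10 of them, and it was called in 5. Between 14.7% and 25.1% of all genes tested had such non-overlapping gates in a cluster. In the Th1-like cluster 6 it was at 517, 567 and 596 CPM against 340, 287 and 308 CPM (log2 fold change -0.87, SE 0.08, edgeR adjusted p = 4.1e-08). In cluster 5 it was at 368, 318 and 340 CPM against 127, 133 and 234 CPM (-0.94, SE 0.19, edgeR adjusted p = 0.00936), a call lost without replicate 2 of the tdTomato+GFP+ gate (0.153) and with 1 cell per clonotype (0.143). In cluster 4 it was at 543, 543 and 533 CPM against 278, 343 and 372 CPM (-0.68, SE 0.09, edgeR adjusted p = 0.000292). The calls in Th17-like clusters 2 (-0.79) and 3 (-0.93) were each lost without 1 of the tdTomato-GFP- replicates, and that of cluster 3 also with 1 cell per clonotype (-0.52, edgeR adjusted p = 0.197). For cluster 2 the edgeR adjusted p was 0.0517 without replicate 1 and 0.0632 without replicate 3, and for cluster 3 it was 0.0987 without replicate 1 and 0.0584 without replicate 2. With the replicate block Zfp36l2 was also called in cluster 0 (-0.68, edgeR adjusted p = 0.0259), cluster 1 (-0.54, 0.0183), cluster 10 (-0.93, 0.0128) and cluster 11 (-1.32, 0.0233). The Tfh-like cluster 7 was the exception, with 523, 393 and 473 CPM against 549, 468 and 319 CPM.

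The other 4 calls were of single clusters or pairs of them. Zc3h12a was lower in Th17-like cluster 1, at 207, 198 and 165 CPM against 134, 137 and 121 CPM (log2 fold change -0.62, SE 0.12), and in cluster 3, at 174, 128 and 115 CPM against 100, 78.5 and 55.5 CPM (-0.95, SE 0.22). Without replicate 1 of the tdTomato-GFP- gate both were lost (edgeR adjusted p of 0.0928 and 0.268), and the cluster 3 call was also lost without replicate 2 (0.115) or 3 (0.051) of that gate or replicate 2 (0.122) of the other, and with 1 cell per clonotype (0.176). In the third Th17-like cluster, cluster 2, Zc3h12a was at 202, 199 and 147 CPM against 204, 157 and 172 CPM, which overlapped. Zc3h12d was lower in cluster 5, where 88.3, 106 and 113 CPM stood against 95.4, 34.0 and 20.5 CPM, so that 1 replicate overlapped (-1.32, SE 0.33, edgeR adjusted p = 0.0381). This call was lost without replicate 2 or 3 of either gate (0.11 and 0.0694 in the tdTomato-GFP-, 0.312 and 0.236 in the tdTomato+GFP+ gate) and with DESeq2 (0.0502). Zfp36 was lower in cluster 11, at 808, 801 and 831 CPM against 554, 619 and 341 CPM (-0.72, SE 0.18, edgeR adjusted p = 0.0214). It was lost with 1 cell per clonotype (0.788) and without replicate 1 (0.0658) or 2 (0.0849) of the tdTomato-GFP- gate or replicate 3 (0.0794) of the other.

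In the same cluster 11, Arid5a (log2 fold change -0.93, edgeR adjusted p = 0.0489, 0.124 with the replicate block) and Btg2 (-0.64, edgeR adjusted p = 0.0220) were called too. Arid5a was lost there without any single replicate other than replicate 3 of the tdTomato-GFP- gate, with edgeR adjusted p-values up to 0.313, and also with DESeq2 (0.273), without TMM factors (0.0656) and with 1 cell per clonotype (0.128). Btg2 was lost without replicate 1 (0.0806) or 2 (0.102) of the tdTomato-GFP- gate or replicate 3 (0.0756) of the other, with DESeq2 (0.0571) and with 1 cell per clonotype (0.0542). Its call in the Th2-like cluster 0 (-0.43, edgeR adjusted p = 0.00658) was lost without replicate 3 of the tdTomato-GFP- gate (0.0723) or replicate 2 of the other (0.068). Of the 21 calls, 9 were kept under each of the 11 alternatives run: Arid5a in clusters 1, 2, 3 and 6, Btg2 in clusters 2, 3 and 6, and Zfp36l2 in clusters 4 and 6. Zfp36l1, Rc3h1 and Btg1 were called in no cluster by edgeR, with 6 of their pairs at an unadjusted p below 0.05. The replicate block called Zfp36l1 lower in cluster 1 (-0.20, edgeR adjusted p = 0.0445), and DESeq2 called 1 pair, Btg1 higher in cluster 5 (0.29).

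**Figure D3:**
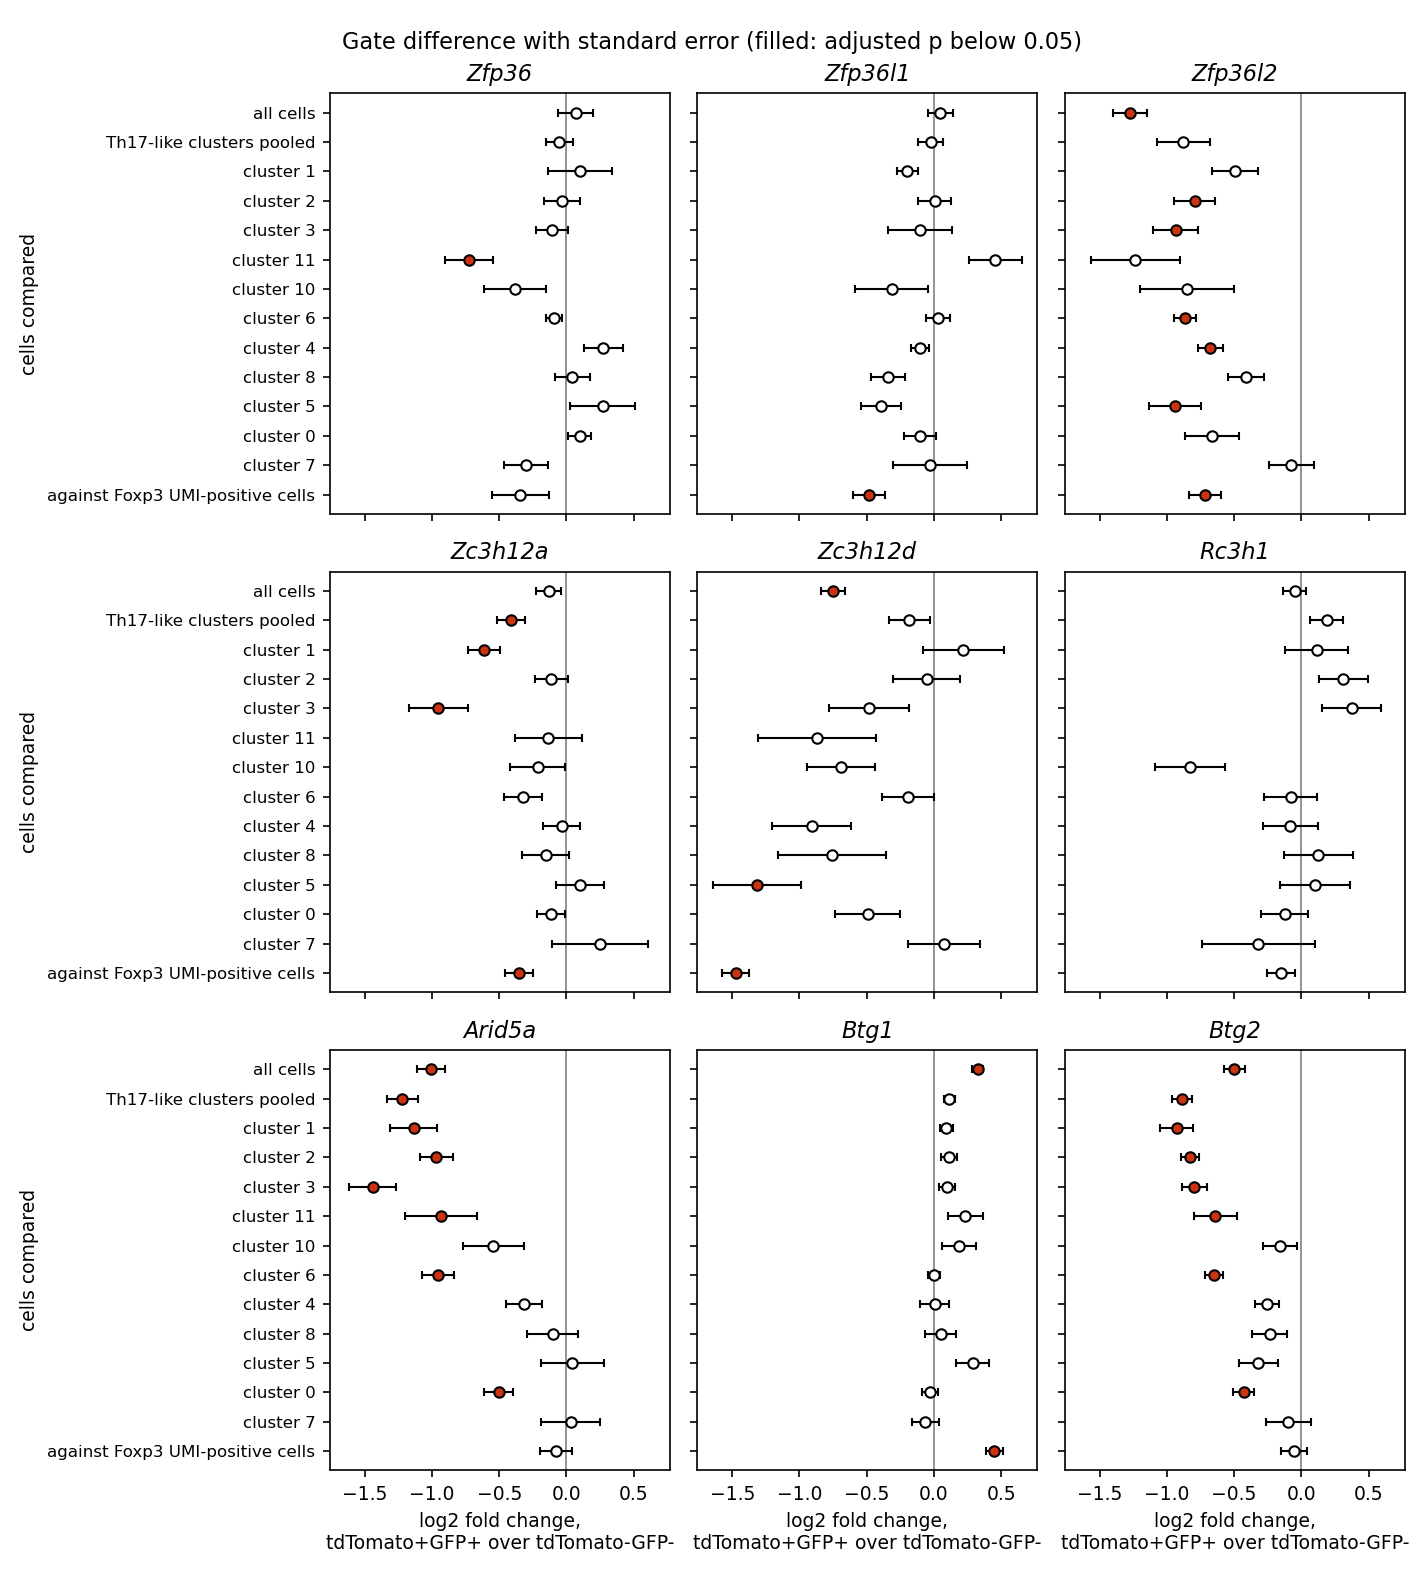
Log2 fold change between the gates (tdTomato+GFP+ relative to tdTomato-GFP-) for each regulator, over all cells, in the pooled Th17-like clusters and in each of 11 clusters, with bars for the SE and filled points for an adjusted p below 0.05. Arid5a and Btg2 are filled on the left of 0 in 6 clusters each, Zfp36l2 in 5, and no filled point of a single cluster lies on the right.

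Whether the size of the gate difference varied between clusters was tested for each member with an interaction term over the 11 clusters. Of 9647 genes tested, 6.99% were called, and 3 of the 9 members were among them. The edgeR adjusted p was 0.000264 for Btg2, 0.000307 for Arid5a and 0.00182 for Zc3h12a. The call of Arid5a was lost without replicate 2 of the tdTomato+GFP+ gate (adjusted p = 0.109), and that of Zc3h12a without replicate 1 of the tdTomato-GFP- gate (adjusted p = 0.483). For Zfp36l2, by contrast, a difference between clusters did not pass (edgeR adjusted p = 0.669), and the remaining members had adjusted p-values from 0.174 to 0.355.

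The tdTomato-GFP- gate holds cells of many kinds, among them Treg cells that use the wild-type allele, so its Foxp3 UMI-positive cells were compared with all tdTomato+GFP+ cells. There were 2194 such cells (1126, 719 and 349 in replicates 1 to 3), chosen by at least 1 Foxp3 UMI alone. Against these cells 5 members were called, 4 lower and 1 higher in tdTomato+GFP+ cells, while 21.9% of 11020 genes were called (9.64% higher and 12.3% lower). The tdTomato+GFP+ cells are those of the comparison over all cells, and the 2 comparisons share them. Only 1 side was chosen by a Foxp3 UMI, and 5665 of the 8765 tdTomato+GFP+ cells were Th17-like. In this comparison 6 of 7 Treg markers tested were lower in tdTomato+GFP+ cells and 6 of 9 Th17 markers were higher. Cell type and allele therefore cannot be told apart here.

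Zc3h12d, Zfp36l2, Zfp36l1 and Zc3h12a were the members lower in tdTomato+GFP+ cells. Zc3h12d was at 78.3, 76.6 and 81.2 CPM in the Foxp3 UMI-positive tdTomato-GFP- cells against 32.2, 26.1 and 26.6 CPM (log2 fold change -1.47, SE 0.10, edgeR adjusted p = 1.3e-05). Zfp36l2 was at 360, 363 and 344 CPM against 172, 224 and 251 CPM, again without overlap (-0.72, edgeR adjusted p = 0.00322). With 1 cell per clonotype its log2 fold change was -0.19 (edgeR adjusted p = 0.118). Zfp36l1 was at 1914, 2142 and 2325 CPM against 1701, 1547 and 1313 CPM (-0.48, edgeR adjusted p = 0.0230). The replicate block gave an adjusted p of 0.277, and the call was lost without replicate 2 (0.0797) or 3 (0.0743) of the tdTomato-GFP- gate or replicate 2 (0.0663) of the other. Zc3h12a was at 156, 189 and 158 CPM against 141, 133 and 119 CPM (-0.35, edgeR adjusted p = 0.0344). It was lost without replicate 2 (0.148) or 3 (0.0729) of the tdTomato-GFP- gate and without replicate 2 (0.0890) or 3 (0.0997) of the other, with no filter on low counts (0.0528), where both gates were limited to Foxp3 UMI-positive cells (0.268) and with 1 cell per clonotype (-0.21, adjusted p = 0.376).

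Btg1 was higher in tdTomato+GFP+ cells, at 1876, 1869 and 1947 CPM against 2600, 2656 and 2512 CPM (0.45, edgeR adjusted p = 0.00061). The genes with the clearest difference within Th17-like clusters did not pass here. Arid5a was at 93.3, 73.0 and 84.5 CPM in the Foxp3 UMI-positive cells, within the range of 66.0 to 89.5 CPM of tdTomato+GFP+ cells but for 1 replicate (-0.08, edgeR adjusted p = 0.709). Btg2 was at 490, 533 and 572 CPM against 447, 549 and 537 CPM (-0.06, edgeR adjusted p = 0.753). Both fold changes turned positive under some alternatives. Zfp36 was at 954, 1088 and 1489 CPM against 797, 920 and 1073 CPM (-0.34, edgeR adjusted p = 0.329, and -0.32 with 0.00777 under the replicate block). Rc3h1 was not called (-0.15).

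Other genes of the decay pathway were called in both directions, as were genes at large. Of 145 tested from 8 lists of partners, upstream regulators, targets and immediate-early genes, 13 rose and 17 fell in tdTomato+GFP+ cells, while 13% and 13.4% of all genes did. In the CCR4-NOT and PAN deadenylation list 1 of 19 rose and 1 fell. Btg3, a relative of Btg1 and Btg2, rose (82.7 to 103 CPM, log2 fold change 0.31), and Tob1, another antiproliferative CCR4-NOT adaptor, fell (56.8 to 35.9 CPM, -0.67). Of 16 decapping and 5′ decay genes, Dcps rose (0.26) and the helicase gene Ddx6 fell (-0.26). None of 15 exosome genes was called by edgeR, and 1 of them, Exosc10, had an unadjusted p below 0.05 (edgeR adjusted p = 0.132), a level that 37.5% of all genes reached; DESeq2 was not tabulated for this list. Of 14 genes of nonsense-mediated decay, Smg6 (0.25) and Upf3a (0.22) rose. Of 19 other AU-rich element and stem-loop binding proteins, Ybx1 rose (731 to 1010 CPM, 0.45) and Hnrnpd, which encodes AUF1, fell (113 to 89.4 CPM, -0.36). Rc3h2, which encodes Roquin-2, had a log2 fold change of -0.09 and N4bp1, an RNase related to Regnase-1, one of -0.26 (edgeR adjusted p = 0.0637), so neither was called.

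Upstream genes that control these proteins were also called in both directions. Of 15 tested, 3 rose and 4 fell over all cells, while 13% and 13.4% of all genes did. Ywhaz, a 14-3-3 protein of the kind that holds phosphorylated ZFP36, rose from 793 to 988 CPM (0.30) and the phosphatase subunit gene Ppp2ca from 228 to 269 CPM (0.22). Ikbkb, which encodes a kinase of the NF-κB pathway, fell (-0.43). Malt1, the protease that cleaves Regnase-1 and Roquin-1, had a log2 fold change of 0.03 over all cells but rose within the Th17-like clusters, from 238 to 311 CPM (0.36, edgeR adjusted p = 0.0186). Mapkapk2, the kinase that inactivates ZFP36, fell within the Th17-like clusters, from 113 to 82.0 CPM (-0.51), and was not called over all cells (-0.18). The difference between Th17-like cells and all cells was not tested for these genes.

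Known target mRNAs are described within the Th17-like clusters, where 3 rose and 7 fell of 27 tested, while 4.75% and 6.45% of all genes did. The median log2 fold change of the list was -0.14, against 0.01 for all genes. The cytokine mRNAs that share AU-rich cores did not move as 1 group. Il17a was at 12694 ± 390 CPM in tdTomato-GFP- and 16468 ± 886 CPM in tdTomato+GFP+ cells (SD, n = 3), a log2 fold change of 0.34. Csf2, with the most copies of the core, was at 81.3 ± 18.8 and 9.12 ± 1.79 CPM (-3.23), and Il22 at 705 ± 208 and 61.7 ± 25.2 CPM (-3.53, edgeR adjusted p = 0.0167). Ifng was at 913 ± 81.7 and 123 ± 28.2 CPM (-2.93, edgeR adjusted p = 0.00106), and Tnf at 134 ± 20.8 and 58.6 ± 11.4 CPM (-1.24, edgeR adjusted p = 0.00266). Other listed cytokine mRNAs with the core, such as Il10 (4 copies, 1.36) and Il21 (2 copies, -1.22), were not called (edgeR adjusted p of 0.124 and 0.195). Tbx21, the Th1 master regulator, also fell (56.2 to 25.3 CPM, -1.16), and Il17a defines these clusters, so its level was fixed in part by their choice. Mean Il17a was 49640 CPM in cluster 12, 23353 CPM in cluster 1, 9440 CPM in cluster 2 and 7005 CPM in cluster 3. The gates hold these clusters in different proportions, and the part of that in the pooled Il17a difference was not tested.

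Receptor mRNAs of the target list went both ways in the same cells. Icos, the classical Roquin-1 target, fell from 906 ± 40.1 to 745 ± 22.4 CPM (-0.32), and Cd69 fell from 910 to 661 CPM (-0.50). Ctla4 rose from 2835 to 3532 CPM (0.28) and Il2ra from 52.5 to 117 CPM (1.11). Nfkbiz, which encodes a nuclear IκB protein that Regnase-1 targets, had a log2 fold change of -0.05 and Dusp1 one of 0.12, neither called. Il2 had a log2 fold change of -1.63 (edgeR adjusted p = 0.301). Of 18 immediate-early genes 4 were called in these cells, all of them lower, as were 6.45% of all genes (Egr1 -1.01, Klf4 -0.65, Ier2 -0.51 and Jund -0.35), which stands beside the lower Btg2. Its part in the Btg2 difference was not tested.

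**Figure D4:**
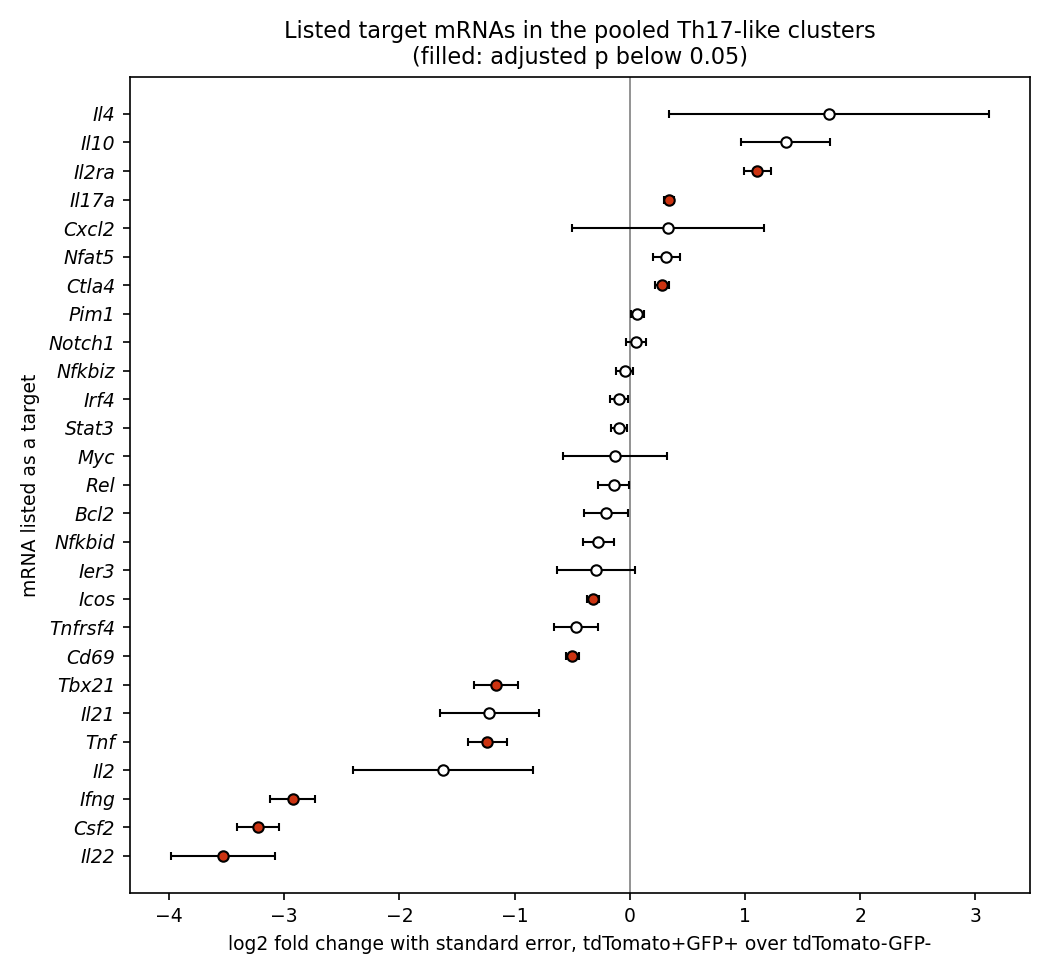
Log2 fold change between the gates (tdTomato+GFP+ relative to tdTomato-GFP-) in the pooled Th17-like clusters for the listed target mRNAs, with bars for the SE and filled points for an adjusted p below 0.05. Il22, Csf2, Ifng and Tnf lie from -3.53 to -1.24 on the left, and Il17a, Ctla4 and Il2ra are the filled points on the right.

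Over all cells the same list gave 3 higher and 7 lower of 29 tested (13% and 13.4% of all genes). Il17a rose from 1726 ± 240 to 10857 ± 1801 CPM (2.64) and Ctla4 by 0.92 on the log2 scale. Il22 (-1.80) and Ifng (-1.54, 320 to 111 CPM) fell most, and Tnf fell less (-0.42, edgeR adjusted p = 0.0303). Csf2 (-0.38), Icos (-0.09), Nfkbiz (-0.12), Dusp1 (0.23) and Il2 (-1.13, edgeR adjusted p = 0.125) were not called. Among immediate-early genes, Fosb (0.50) and Junb (0.25) rose, and Socs3 (-1.24) and Klf4 (-0.61) fell most of 3 that fell. Against the Foxp3 UMI-positive cells, 5 targets rose and 9 fell of 27 (9.64% and 12.3% of all genes), with N4bp1 at -1.44, Mapkapk2 at -0.62, Icos at -0.52 and Tnf at 0.44 on the log2 scale.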

How the data were processed

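Sorted CD4 T cells were profiled for RNA and T cell receptors, with 3 hashed biological replicates per gate on 1 lane. The deposited table holds whole UMI counts per cell and gene, and the deposited cell table gives gate, hashed replicate, cluster, total counts and the fraction of the main hashtag among a cell's hashtag counts. The submitters' processing notes name Cell Ranger, Scanpy 1.7.2 and the builds mm10 and GRCm38; filters on cells and the clustering settings are not given in the sources used here. The labels' protocols name 3′ and 5′ chemistry without saying which applies. No cell had under 399 features.

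Hashtag features, 43.8% of UMIs, were left out, as were 4721 cells without a hashed replicate and, from results by cluster, 216 cells without one. No doublet caller was run. UMI counts were summed per replicate, also within clusters of at least 20 cells in each replicate, and tested (two-sided) with edgeR 4.0.16 in R 4.3.3: filterByExpr with a minimum count of 10, TMM factors, glmQLFit with robust estimation, Benjamini-Hochberg adjustment over all genes and a threshold of 0.05. CPM are UMI counts scaled to 1000000 UMIs without hashtags; log2 fold changes come from the fit. DESeq2 1.42.0, no TMM factors, no filter, a replicate block, single replicates left out, equal cells per cluster, both receptor chains (13310 cells), clustered cells only, clusters left out, 1 cell per clonotype and a Foxp3 UMI in both gates were alternatives. The code was tested on simulated data. Same-numbered replicates deviated together (correlations of 0.268, 0.186 and 0.230), so the numbers may pair the samples, though what they share is not given. The main gate tests did not use this pairing, and the replicate block was an alternative only. Over all cells the block called 2060 genes higher and 2073 lower, against 1550 and 1603 in the main test. Clusters were named from marker lists where several markers led, with thresholds set after seeing the data.

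Members, gene lists and markers were chosen with earlier results of these data known. All members are named, and from each list the 2 called genes with the largest rise and fall over all cells, plus Rc3h2, Malt1, N4bp1, Mapkapk2, Dusp1, Tnf, Il2, Ifng, Csf2, Icos and Nfkbiz; other genes were added after their values were seen, and some genes that the rules name are not reported here. Figures were drawn with matplotlib 3.10.9.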

Additional observations from a re-analysis of the deposited data

Results flagged for a closer look

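For 3 members the gate difference varied between the 11 clusters, by an interaction term tested with edgeR. Btg2 had an adjusted p of 0.000264, with log2 fold changes from -0.93 in Th17-like cluster 1 to -0.10 in the Tfh-like cluster 7. Arid5a had one of 0.000307, with fold changes from -1.44 in Th17-like cluster 3 to 0.05 in cluster 5, and 0.109 without replicate 2 of the tdTomato+GFP+ gate. For Zc3h12a it was 0.00182, with fold changes from -0.95 in cluster 3 to 0.25 in cluster 7, and 0.483 without replicate 1 of the tdTomato-GFP- gate.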

How the results depend on the processing

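Over all cells, 5 members were called in each run that left out a replicate (5 to 5), and 2 with equal cells per cluster. That last alternative called 100 genes higher and 190 lower, against 1550 and 1603 in the main analysis, and uses fewer cells. Counts of called pairs within clusters ran from 12 to 26 when a replicate was left out (12 without replicate 1 of the tdTomato-GFP- gate; main value 21). The interaction gave 2 to 3 members (main value 3) and, without clusters 8 and 11, an alternative chosen after seeing the data, 3. Against Foxp3 UMI-positive cells the count ran from 3 to 5, and was 3 with 1 cell per clonotype (main value 5). Of the listed pathway genes 30 were called, 18 to 29 when a replicate was left out (18 without replicate 2 of the tdTomato-GFP- gate), 48 with the replicate block, 6 with equal cells per cluster and 17 with 1 cell per clonotype. Signs turned for members that were not called. Over all cells, Zfp36 ran from -0.0439 to 0.173 when a replicate was left out and turned to -0.0047 without tdTomato-GFP- replicate 1, -0.0439 without tdTomato+GFP+ replicate 3 and -0.0200 with equal cells. Zfp36l1 ran from -0.0395 (without tdTomato+GFP+ replicate 1) to 0.145 and turned to -0.137 with equal cells. Rc3h1 ran from -0.120 to 0.0143 (without that replicate), and Zc3h12a turned to 0.0127 with 1 cell per clonotype. In pooled Th17-like cells, Zfp36l1 ran from -0.104 to 0.0503 when a replicate was left out, and turned to 0.0106 without TMM, 0.0503 without tdTomato-GFP- replicate 1, 0.0480 without tdTomato+GFP+ replicate 3 and 0.0272 with 1 cell per clonotype, and Zfp36 ran from -0.178 to 0.0294 (without tdTomato+GFP+ replicate 1). Against Foxp3 UMI-positive cells, Arid5a had a lowest value of -0.161 and turned to 0.00165 and 0.0349 without replicate 1 of either gate, 0.0231 with a Foxp3 UMI in both gates and 0.364 with 1 cell per clonotype (adjusted p = 0.0570). Btg2 had a lowest value of -0.126 and turned to 0.0168 without tdTomato-GFP- replicate 3, 0.0339 without tdTomato+GFP+ replicate 1 and 0.157 with 1 cell per clonotype, and Rc3h1 to 0.0152 with a Foxp3 UMI in both gates. The causes were not tested. The replicate block changed no other call of a member than those given beside the results, apart from the interaction, for which it was not run, and its count over clusters was 25 pairs. Low members such as Rc3h1 and Zc3h12d, with few UMIs, limit what small clusters can show.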

Other observations

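Cells without a hashed replicate entered no comparison. They numbered 2217 in the tdTomato-GFP- lane, with a median of 7103 UMIs, and 2504 in the tdTomato+GFP+ lane, with a median of 7676 UMIs. Zfp36l2 was at 506 CPM in the former and 221 CPM in the latter, Arid5a at 151 and 72.1 CPM, and Btg2 at 727 and 559 CPM. Zc3h12d was at 44.6 and 27.4 CPM and Btg1 at 1916 and 2380 CPM. Zfp36 (839 and 930 CPM), Zfp36l1 (1481 and 1531 CPM), Zc3h12a (148 and 127 CPM) and Rc3h1 (43.3 and 41.3 CPM) lay closer together. These are single values per lane, with no replicates.

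Clusters too small to be tested held further extremes. The cytotoxic-like cluster 15 had the highest Zfp36l2 level seen, at 1148 ± 226 CPM in tdTomato-GFP- cells. In tdTomato+GFP+ cells the small Th17-like clusters 12 and 13 had 2686 and 2475 CPM of Zfp36l1, and cluster 12 had 39.9 ± 2.1 CPM of Arid5a.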
